A study of Homo sapiens with 4 samples.

Results

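The genes described here encode the proteins of the cytosolic ribosome, measured in AGS cells treated with ornithogalum. AGS is an established human gastric adenocarcinoma cell line. A gene was included when a probe set of the array carried its symbol alone and the symbol was RPL or RPS followed by a number, or RPLP1 or RPLP2 for the acidic stalk proteins. The S6 kinase genes, the paralog RPS27L and pseudogenes were left out by the same rule. The rule found 66 genes among the 18417 that had a probe set with 1 symbol. They comprise 57 core genes, 36 of the large and 21 of the small subunit, and 9 paralogs whose symbols end in L, L1, Y1 or Y2. Of the 77 core genes known by such names, 11 had only probe sets shared with other symbols and 9 were not listed among the names used here, so neither kind was analysed as a gene. Values of the 2 Y-linked paralogs are not given.

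Total RNA was hybridised to Affymetrix Human Gene 1.0 ST arrays, which probe each transcript along its length. The 4 arrays form 2 groups, 2 from AGS cells given 0.01% ornithogalum for 36 h and 2 from AGS cells given ethanol as vehicle for 36 h. Ornithogalum is a plant genus from which homeopathic preparations are made, and the labels do not give the composition of the preparation. The labels call the arrays of a group biological replicates without saying whether they came from separate cultures, so p-values measure only the spread between these samples. All values are log2 expression values per transcript cluster, the array's unit of several probes read together, and all differences are ornithogalum minus vehicle. A gene with several clusters was read from the one of highest mean value.

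A ribosome joins a small subunit, which decodes the messenger RNA, to a large subunit, which forms the peptide bond. Each of its proteins is normally present once per ribosome, apart from the stalk proteins, and surplus protein that is not built in is degraded. The messenger RNAs of these proteins begin with a C and an unbroken stretch of pyrimidines, the 5′ terminal oligopyrimidine (TOP) motif, through which the kinase complex mTORC1 and the protein LARP1 set their translation together. Arrays of total RNA measure the amount of these messengers and not their translation.

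The windows below show this motif, or its absence, at annotated starts of genes to which the results return. They are some of the 12 core genes of smallest p, not all of them, and the paralog pair RPL26 and RPL26L1. Each window runs from 10 bases before the start to the 20 bases that begin at it, on the gene's strand, from RefSeq on GRCh38.p14. Capitals mark the unbroken run of C and T that covers the start, and a window without capitals has none.
RPS24, chr10:78033853-78033882, plus strand: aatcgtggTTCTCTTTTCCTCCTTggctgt
RPS21, chr20:62387093-62387122, plus strand: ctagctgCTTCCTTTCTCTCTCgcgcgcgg
RPL29, chr3:51995876-51995905, minus strand: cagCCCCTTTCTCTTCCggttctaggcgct
RPL11, chr1:23691796-23691825, plus strand: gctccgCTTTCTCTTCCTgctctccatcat
RPL3, chr22:39319604-39319633, minus strand: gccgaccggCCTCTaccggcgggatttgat
RPL32, chr3:12841546-12841575, minus strand: acgacccatcagcccttgcgcgccaccgtc
RPL26, chr17:8383174-8383203, minus strand: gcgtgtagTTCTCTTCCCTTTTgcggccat
RPL26L1, chr5:172958719-172958748, plus strand: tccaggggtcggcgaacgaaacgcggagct
The run at the start was 16 bases in RPS24, 15 in RPS21, 14 in RPL29 and RPL26, and 5 in RPL3. RPL11 has 2 annotated starts, of which 1 carries the run shown, 12 bases long. None of the 3 annotated starts of RPL32 and neither of the 2 of RPL26L1 lies in such a run.

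A TOP start was counted where at least 1 annotated start of a gene was a C followed by at least 4 more pyrimidines, on the gene's strand. The run of 5 bases in RPL3 begins before its start, so RPL3 was not counted. Promoter entries were found for 48 of the 57 core genes, and 36 of these had a TOP start (75%), against 1404 of all 27305 genes with an entry (5.14%). The share was 76.7% of 30 large-subunit genes and 72.2% of 18 small-subunit genes. Of 5 paralogs with an entry, 1 had a TOP start, RPL22L1. The letters CCGGAAG, a form of the ETS transcription factor motif, stood on either strand of the promoter window, which spans 250 bases before the start and 50 after it, in 37.5% of the 48 core genes and in 12.2% of all genes. These matches describe the annotated sequence and not the start used in AGS cells.

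No core ribosomal protein gene passed the test, while about 1 in 5 clusters of the whole array did. Limma, with Benjamini-Hochberg adjustment over all 21214 named clusters and a threshold of 0.05, called 19.2% of them, 6.57% higher and 12.6% lower in ornithogalum cells. Among the 57 core genes it called 0. At an unadjusted p under 0.05 there were 6 core genes (10.5%), 3 with positive and 3 with negative differences, against 33.8% of all clusters. A difference of at least 1.5-fold in either direction was measured in 1 core gene, RPS24, against 20.4% of all clusters. The count of 0 depends on how the variance is modelled. With limma's prior variance following an intensity trend, 10 core genes and the paralog RPL26L1 passed, beside 24.4% of all clusters. Whole cultures were sampled, so fewer cells of a type and less RNA per cell cannot be told apart.

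With a robust prior added to the trend, 11 members passed beside 24.1% of all clusters. In the brighter part of the clusters, at or above the median, 6 members passed beside 45.6%, and among clusters of mean log2 value 10 or more 3 members passed beside 41.3%. Median centring gave 3 members beside 19.5%, cyclic loess 2 beside 20.6%, array weights 2 beside 19.2%, quantile normalization 1 beside 19.4% and the clusters of 1 symbol 1 beside 19.7%. The replicate block gave 0 beside 15.6%, testing unnamed clusters as well 0 beside 7.94% and no moderation 0 beside 0.00471%. Leaving out the first ornithogalum array gave 3 members beside 20.4% and leaving out the second 6 beside 33.3%. With either vehicle array left out nothing on the array passed, neither a member nor any other cluster.

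The differences of the core genes were small beside those of the array at large. Their median absolute log2 difference was 0.19, against 0.26 over all named clusters, and their median standard error was 0.12, against 0.14. The interquartile range of the core differences was 0.41 log2 units and that of all clusters 0.53. Limma's 95% interval lay within 2-fold in either direction for 54 of 57 core genes (94.7%), against 77.7% of all clusters, and within 1.5-fold for 37 (64.9%), against 39.8%. Among the 20 core genes of mean log2 value 10 or more, 0 were called and 0 reached 1.5-fold. The 179 named clusters of that brightness held 16 called higher, 16 called lower and 24 of at least 1.5-fold.

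**Figure D1:**
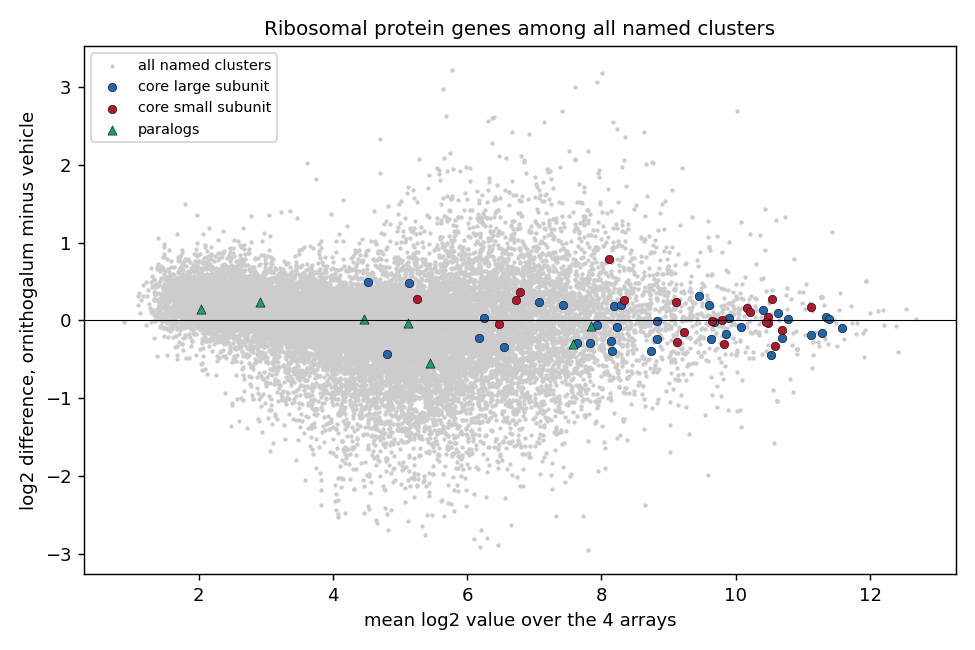
Difference of each cluster (vertical axis, log2, ornithogalum minus vehicle) against its mean log2 value over the 4 arrays (horizontal axis). Grey points are all 21214 named clusters, blue and red circles the 36 large-subunit and 21 small-subunit core genes, and green triangles the 7 paralogs given values; all core genes lie between -0.44 (RPL3) and 0.79 (RPS24).

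By subunit, the core genes were spread around zero. The median difference of the 36 large-subunit genes was -0.065, with 15 positive and 21 negative differences. That of the 21 small-subunit genes was 0.042, with 12 positive and 9 negative, and that of all named clusters was 0.035. Centring each array on its median moved the median of all clusters to 0.20, that of the large-subunit genes to 0.095 and that of the small-subunit genes to 0.20, so the sign of the large-subunit median depends on the scaling. Across all 57 core genes the median was -0.0073, with 27 positive and 30 negative differences.

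On the separate arrays, the median value of the large-subunit genes was 8.67 and 8.85 with ornithogalum, against 8.90 and 8.97 with vehicle. The median of the small-subunit genes was 9.59 and 9.80 with ornithogalum, against 9.81 and 9.79 with vehicle. The first ornithogalum array had the lowest median in both subunits, as it did over all named clusters (4.48 and 4.62 with ornithogalum, against 4.71 and 4.70 with vehicle), and in the small subunit the other arrays lay close together. Both ornithogalum arrays lay above both vehicle arrays for 10 large-subunit and 8 small-subunit genes, and below both for 15 and 5. Over all named clusters the shares were 32% above and 30.2% below. Together these were 38 of 57 core genes (66.7%), a share near the 62.2% of all named clusters whose groups did not overlap.

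**Figure D2:**
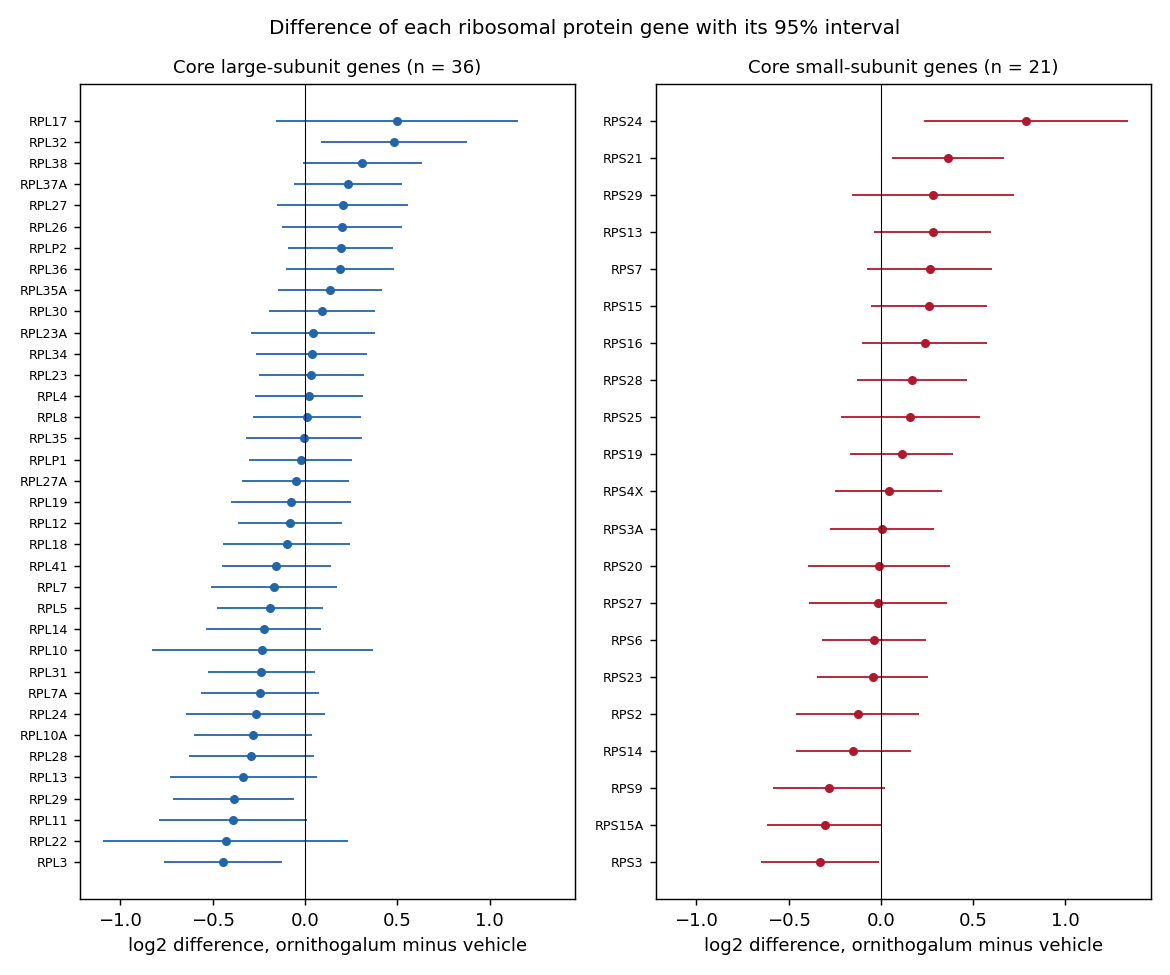
Log2 difference (ornithogalum minus vehicle, horizontal axis) of each core gene with limma's unadjusted 95% interval, for 36 large-subunit genes on the left and 21 small-subunit genes on the right, each sorted by difference. The intervals of RPL32, RPS24 and RPS21 lie above 0 and those of RPL3, RPL29 and RPS3 below 0, and those of the other genes cross it.

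The large-subunit gene of smallest p was RPL3, whose protein reaches with a long extension towards the peptidyl transferase centre. RPL3 measured 10.27 and 10.33 on the ornithogalum arrays, against 10.65 and 10.83 on the vehicle arrays. Both ornithogalum arrays lay below both vehicle arrays, by a difference of -0.44 (SE 0.13, 95% interval -0.76 to -0.12, limma adjusted p = 0.071). RPL10A, a protein of the mobile L1 stalk through which spent tRNA leaves, measured 7.59 and 7.78 with ornithogalum and 7.95 and 8.0 with vehicle, a difference of -0.28 (adjusted p = 0.19). RPL29, a small basic protein of the large subunit, measured 8.45 and 8.64 with ornithogalum and 8.88 and 8.98 with vehicle. Its groups did not overlap, at a difference of -0.39 (SE 0.13, adjusted p = 0.10). A second RPL29 cluster of lower mean value passed the test, at 6.76 and 6.86 with ornithogalum and 7.41 and 7.26 with vehicle (difference -0.52, adjusted p = 0.044). Of the 35 clusters of member genes beyond the one read for each gene, it was the only one that passed, beside 19.2% of all named clusters.

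RPL32 and RPL38 stood on the other side. RPL32, a protein on the solvent side of the large subunit, measured 5.31 and 5.46 with ornithogalum, against 5.06 and 4.74 with vehicle. It was dim for a core gene, at percentiles 50.8 to 67.8 of the named clusters of the arrays. The median percentile of the core genes was 98.3 to 98.6. The ornithogalum arrays lay above both vehicle arrays, and the vehicle arrays were the farther apart (difference 0.48, SE 0.15, adjusted p = 0.095). RPL38, required in mice for the translation of a subset of Hox messengers, measured 9.51 and 9.72 with ornithogalum and 9.31 and 9.30 with vehicle, a difference of 0.31 (adjusted p = 0.16). RPL32 passed under each of the 3 other scalings, at 0.67 after quantile normalization (adjusted p = 0.030), 0.63 after cyclic loess (adjusted p = 0.034) and 0.64 after median centring (adjusted p = 0.040).

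RPL5 and RPL11 bind the 5S ribosomal RNA and enter the large subunit with it as 1 particle. When ribosome assembly fails, the same particle binds MDM2, the ubiquitin ligase of p53. RPL11 measured 7.79 and 8.14 with ornithogalum, against 8.31 and 8.40 with vehicle (difference -0.39, SE 0.16, adjusted p = 0.16). RPL5 measured 11.05 and 11.01 with ornithogalum, against 11.26 and 11.18 with vehicle (difference -0.19, adjusted p = 0.30). In both genes the ornithogalum arrays lay below the vehicle arrays, and neither passed the test. Without the second ornithogalum array RPL11 passed, in a fit where the vehicle pair alone gave the spread.

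The stalk of the large subunit recruits the GTPase factors that drive each step of translation. RPLP1, an acidic stalk protein, measured 9.66 on both ornithogalum arrays, against 9.68 and 9.69 with vehicle (difference -0.024, 95% interval -0.30 to 0.26). RPLP2, its partner, measured 9.73 and 9.65 with ornithogalum and 9.51 and 9.49 with vehicle (difference 0.19, adjusted p = 0.30). With RPL12, which lies at the base of the stalk, 3 of 4 stalk genes were measured and 0 passed. RPLP1 hardly varied over the 4 arrays. Of 8 genes fixed for the exit tunnel, through which the new chain leaves, and its rim, 7 were measured and 0 passed, with a median difference of 0.022. Over all named clusters 19.2% passed, and sets as small as these can hold 0 at that share.

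The large-subunit genes of highest and lowest mean value had different spreads. RPL18, a protein of the solvent side, measured 11.65 and 11.41 with ornithogalum and 11.60 and 11.66 with vehicle, a difference of -0.10. RPL8, which lies near the peptidyl transferase centre, measured 11.35 and 11.45 with ornithogalum and 11.37 and 11.40 with vehicle, a difference of 0.012. In both genes the groups overlapped. RPL22, a protein that also binds RNA outside the ribosome, measured 4.22 and 4.96 with ornithogalum and 5.08 and 4.95 with vehicle (difference -0.43, SE 0.26). RPL17, a protein of the exit tunnel, measured 4.41 and 5.14 with ornithogalum and 4.29 and 4.26 with vehicle (difference 0.50, SE 0.26). The ornithogalum arrays of these dim genes lay far apart, and their 95% intervals, -1.10 to 0.23 for RPL22 and -0.16 to 1.16 for RPL17, reached past 2-fold. Each passed with 1 ornithogalum array left out, RPL17 without the first and RPL22 without the second. Those fits take the spread from the vehicle pair alone, so the gap between the ornithogalum arrays did not enter. Another 2 clusters, which carry RPL17 together with its read-through transcript RPL17-C18orf32, had differences of -0.23 and -0.18 at values of 8.65 to 9.03 and did not pass, so the low value and the positive difference of RPL17 rest on the cluster of its symbol alone.

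In the small subunit RPS24 had the largest difference of all core genes. The RPS24 protein takes part in maturing the 18S ribosomal RNA, and mutations in its gene cause Diamond-Blackfan anaemia. RPS24 measured 8.21 and 8.80 on the ornithogalum arrays, against 7.70 and 7.74 on the vehicle arrays, with means of 8.51 ± 0.42 and 7.72 ± 0.023 (SD, n = 2 each). Both ornithogalum arrays lay above both vehicle arrays and stood farther apart than the vehicle arrays. The difference was 0.79, or 1.72-fold (SE 0.22, 95% interval 0.23 to 1.34), and did not pass (adjusted p = 0.066). The difference was 1.08 without the first ornithogalum array and 0.49 without the second, and RPS24 passed in both fits. In those fits the vehicle pair alone gave the spread, so the gap between the ornithogalum arrays did not enter. RPS24 also passed after median centring, at 0.95 (adjusted p = 0.023).

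RPS21, another protein needed for 18S RNA maturation, measured 6.90 and 7.04 with ornithogalum, against 6.61 on both vehicle arrays. The ornithogalum arrays lay above the vehicle arrays by 0.36 (SE 0.12, adjusted p = 0.098). RPS13, a protein of the small-subunit body, measured 10.60 and 10.78 with ornithogalum and 10.39 and 10.43 with vehicle, a difference of 0.28 (adjusted p = 0.19). RPS15A, which also lies in the body, measured 9.59 and 9.76 with ornithogalum and 9.99 and 9.96 with vehicle, a difference of -0.30 (adjusted p = 0.16). RPS9, an early-binding protein of the body, measured 9.04 and 8.93 with ornithogalum and 9.21 and 9.32 with vehicle, a difference of -0.28 (adjusted p = 0.17). Genes of the same structural domain thus lay on both sides of zero. Of 17 body genes 13 were measured and 0 passed, 6 with positive and 7 with negative differences. The share that passed over all named clusters was 19.2%.

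RPS3, which lines the entry channel of messenger RNA in the head and also acts in DNA repair, measured 10.46 and 10.38 with ornithogalum, against 10.66 and 10.84 with vehicle. Its groups did not overlap, at a difference of -0.33 (SE 0.12, adjusted p = 0.14). Among the 8 of 14 head genes measured, 6 had positive differences, 2 negative ones and 0 passed, beside 19.2% of all named clusters. Their median was 0.16, beside 0.035 over all named clusters. It was 0.15 after quantile normalization, 0.088 after cyclic loess and 0.32 after median centring. The median of all clusters was 0.051, 0.016 and 0.20 under these scalings, in that order. RPS28, which lies in the head beside the exit of the messenger, measured 11.14 and 11.26 with ornithogalum and 11.06 and 11.01 with vehicle, a difference of 0.17. RPS29, a zinc-binding protein of the head, measured 5.57 and 5.20 with ornithogalum and 5.01 and 5.21 with vehicle, and its groups overlapped. RPS2, at the entry of the messenger channel, measured 10.73 and 10.51 with ornithogalum and 10.77 and 10.72 with vehicle, a difference of -0.13. RPS23, beside the decoding centre, measured 6.46 and 6.43 with ornithogalum and 6.42 and 6.55 with vehicle, a difference of -0.045. The last 2 genes overlapped between groups.

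**Figure D3:**
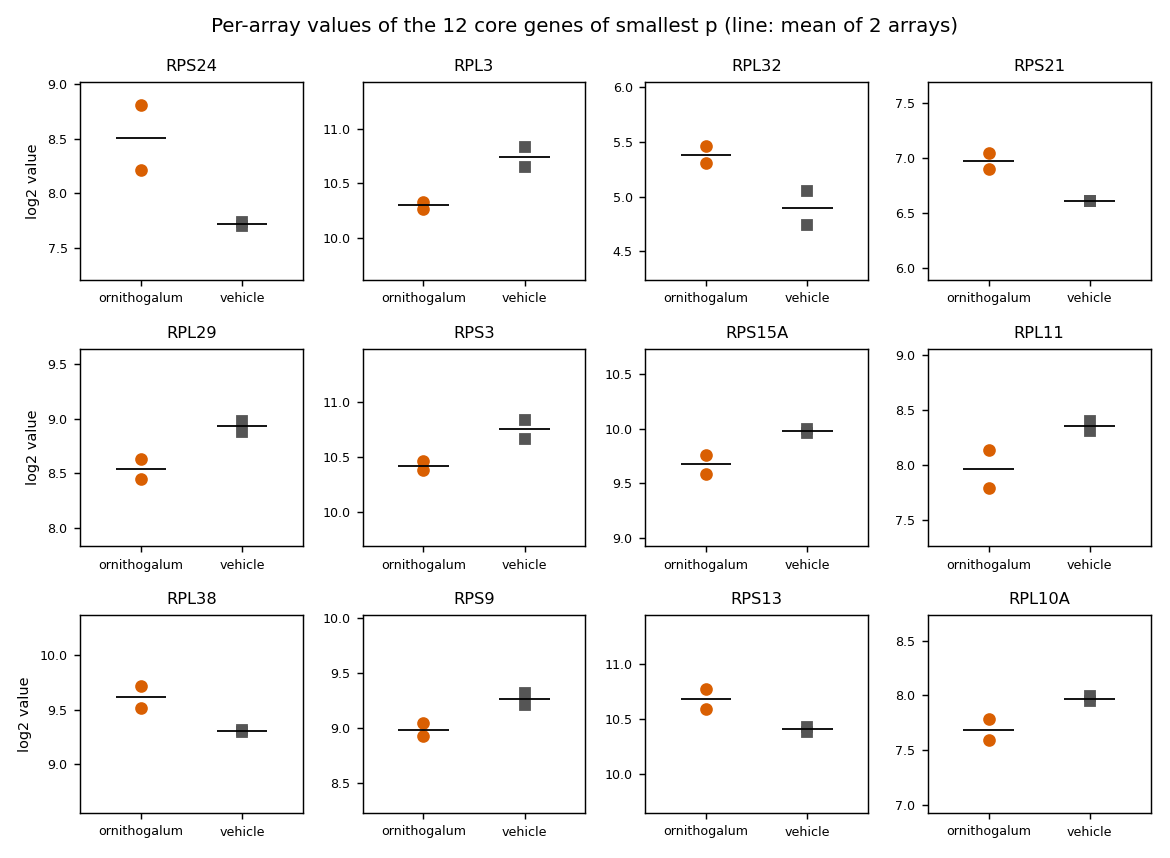
Log2 value on each array (vertical axis) of the 12 core genes of smallest p, with ornithogalum as orange circles on the left of each panel, vehicle as grey squares on the right, and a line at each mean of 2 arrays. In all 12 panels the groups do not overlap, but the genes were picked by p from these same values, which favours such genes. Over all named clusters 62.2% did not overlap. The ornithogalum arrays of RPS24 (8.21 and 8.80) are the farthest apart, and the vertical axes span equal ranges.

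Genes named for their medical or regulatory roles were counted in the same way, beside the 19.2% of all named clusters that passed. Of 8 ribosomal proteins fixed as binders of MDM2, 7 were measured and 0 passed, with a median difference of -0.15 that became 0.011 after median centring. Of 16 genes mutated in Diamond-Blackfan anaemia, a failure of red cell formation, 12 were measured and 0 passed. Their median of 0.15 was 0.072 after cyclic loess and 0.31 after median centring. The median of all named clusters was 0.035, and it was 0.016 after cyclic loess and 0.20 after median centring. Core genes with a TOP start among their annotated starts had a median difference of -0.041 (36 genes) and those without one 0.19 (12 genes). The latter include RPL19 and RPS7, whose longest pyrimidine runs over an annotated start were 12 and 11 bases. No core gene passed in either set, and the difference between them was not tested.

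Differences taken from array pairs that share no array were compared gene by gene. The first ornithogalum array minus the first vehicle array and the second minus the second had the same sign in 42 of 57 core genes (73.7%), and the crossed pairs in 44 (77.2%). Over all named clusters these shares were 71.0% and 73.0%, so the core genes were near the array at large. Across the core genes, which share arrays and are not independent, Pearson's r between the paired differences was 0.55, and 0.70 with the pairs crossed. Over all clusters r was 0.74 and 0.76. The median SD within a group over the core genes was 0.10 with ornithogalum and 0.045 with vehicle.

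**Figure D4:**
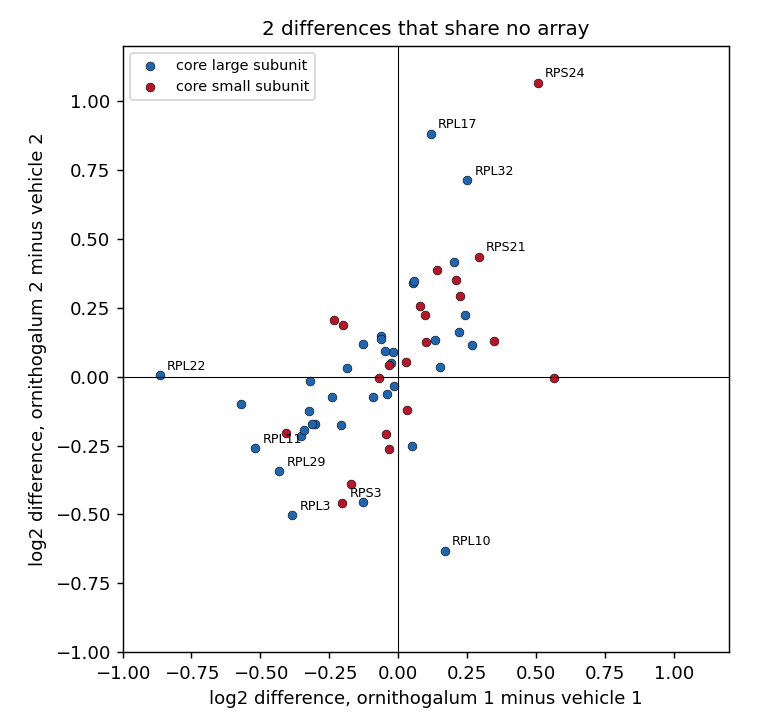
Log2 difference of the second ornithogalum array from the second vehicle array (vertical axis) against that of the first from the first (horizontal axis), 1 point per core gene, blue for large-subunit and red for small-subunit genes. The 2 axes share no array; RPS24 and RPL32 are positive and RPL3, RPL29, RPL11 and RPS3 negative on both, while RPL10 and RPL22 change sign between the axes.

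The only member that passed was a paralog, 1 of the 7 given values, beside 19.2% of all named clusters. RPL26L1 encodes a near-identical copy of RPL26, a protein of the exit tunnel rim. RPL26L1 measured 5.24 and 5.11 on the ornithogalum arrays, against 5.70 and 5.75 on the vehicle arrays, with means of 5.18 ± 0.092 and 5.72 ± 0.033 (SD, n = 2 each). It was lower with ornithogalum, with no overlap between groups (difference -0.54, SE 0.12, 95% interval -0.85 to -0.24, adjusted p = 0.035). RPL26 itself measured 8.34 and 8.45 with ornithogalum and 8.28 and 8.11 with vehicle (difference 0.20, adjusted p = 0.34). A second RPL26L1 cluster, dimmer, gave 3.49 and 4.46 with ornithogalum and 4.34 and 4.06 with vehicle. Its groups overlapped, at a difference of -0.23 (adjusted p = 0.67). The call thus rests on the brighter cluster alone. Which of the 2 clusters lies at the RPL26L1 locus was not tested. The RPL26L1 call was lost under quantile normalization (-0.35, adjusted p = 0.14), cyclic loess (-0.40), median centring (-0.39), the replicate block (adjusted p = 0.071) and with either vehicle array left out.

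The other paralogs with values did not pass. RPL7L1, a factor of large-subunit assembly, measured 7.32 and 7.53 with ornithogalum and 7.68 and 7.76 with vehicle, without overlap (difference -0.30, adjusted p = 0.18). RPL22L1, which can stand in for RPL22, measured 2.80 and 3.26 with ornithogalum and 2.76 and 2.83 with vehicle. RPL36AL, a copy of RPL36A without introns, measured 7.65 and 7.95 with ornithogalum and 7.79 and 7.96 with vehicle. Both of these overlapped between groups. RPL39L, found mainly in germ cells, measured 2.26 and 1.97 with ornithogalum and 1.94 and 1.99 with vehicle. RPL3L, the striated muscle form of RPL3, measured 4.93 and 5.26 with ornithogalum and 5.13 and 5.12 with vehicle. RPL10L, the testis form of RPL10, measured 4.38 and 4.55 with ornithogalum and 4.54 and 4.36 with vehicle. These tissue-restricted forms overlapped between groups as well, with differences of 0.15, -0.027 and 0.016. RPL39L lay at percentiles 4.9 to 5.9 of the named clusters of the arrays and RPL22L1 at 13.9 to 23.7. At values so low, overlap does not show that a gene was unchanged.

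Outside the naming rule lies FAU, which encodes the protein RPS30 of the small subunit, fused to a ubiquitin-like protein. FAU measured 7.47 and 7.48 on the ornithogalum arrays, against 6.69 and 6.61 on the vehicle arrays. It rose 1.77-fold with ornithogalum (difference 0.82, SE 0.11, adjusted p = 0.010). RPS27L, a p53-induced paralog of RPS27, measured 6.88 and 7.15 with ornithogalum and 6.46 and 6.18 with vehicle. RPS27L rose 1.62-fold (difference 0.69, SE 0.16, adjusted p = 0.044). Neither FAU nor RPS27L passed with either vehicle array left out, and RPS27L was also lost with the replicate block (adjusted p = 0.069) and without the second ornithogalum array (adjusted p = 0.060). RPS27 itself measured 10.34 and 10.55 with ornithogalum and 10.57 and 10.34 with vehicle, a difference of -0.014.

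Other messengers known to carry the TOP motif, for translation factors and their partners, were set beside the ribosomal protein genes. All 18 of this list were measured, 0 passed higher and 5 lower, with a median difference of -0.28, where the array had 6.57% of clusters higher and 12.6% lower. EIF2S3, the gamma subunit of the factor that brings the initiator tRNA, measured 7.47 and 7.57 with ornithogalum, against 8.52 and 8.48 with vehicle. EIF2S3 fell 1.98-fold (difference -0.98, SE 0.11, adjusted p = 0.0068). EIF3E, a subunit of the initiation factor that holds the small subunit, measured 7.34 and 7.36 with ornithogalum, against 8.24 and 8.09 with vehicle, and fell 1.77-fold (adjusted p = 0.012). EIF4B, a cofactor of the initiation helicase, measured 9.04 and 8.97 with ornithogalum, against 9.54 and 9.60 with vehicle, and fell 1.48-fold (adjusted p = 0.029). The other two that fell were EIF3L (-0.58) and EEF2 (-0.51), the factor that moves the ribosome along. The count of falls was 2 after median centring, where 19.5% of all clusters passed in either direction, and 2 with the replicate block (15.6% of clusters). It was 6 after quantile (19.4%) or loess scaling (20.6%), 8 without the second ornithogalum array (33.3%), 11 with the intensity trend (24.4%), beside 1 rise, and 0 with either vehicle array left out. The difference between this list and the ribosomal protein genes was not tested.

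Among 15 genes that control TOP messengers or form and govern mTORC1, 4 rose and 3 fell, where 6.57% of all clusters rose and 12.6% fell. LARP4, an RNA-binding protein that stabilises messengers, measured 7.47 and 7.84 with ornithogalum, against 6.37 on both vehicle arrays, and rose 2.43-fold (difference 1.28, SE 0.16, adjusted p = 0.0080). SESN2, a stress-induced inhibitor of mTORC1, measured 6.11 and 6.12 with ornithogalum, against 5.26 and 5.17 with vehicle, and rose 1.87-fold (adjusted p = 0.0081). EIF4EBP2, a repressor of cap-dependent initiation that mTORC1 inactivates, measured 7.23 and 7.38 with ornithogalum, against 8.26 and 8.22 with vehicle, and fell 1.91-fold (adjusted p = 0.0087). DDIT4 (0.71) and TSC1 (0.61), both inhibitors of the pathway, also rose, and TSC2 (-0.49), the partner of TSC1, and RPTOR (-0.76), the mTORC1 scaffold, fell. LARP1, which binds the TOP motif itself, measured 8.12 and 8.02 with ornithogalum and 7.79 and 7.83 with vehicle and did not pass (adjusted p = 0.19). TSC1 and TSC2 were lost with the replicate block (adjusted p = 0.053 and 0.082), TSC1 also without the first ornithogalum array (adjusted p = 0.059), and TSC2 also under each of the 3 other scalings (adjusted p = 0.082 to 0.13). With either vehicle array left out 0 of the 15 passed.

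Escort proteins guard single ribosomal proteins on their way to the nucleus or to assembly. Of 9 escort genes measured, 0 rose and 3 fell, beside the same 6.57% and 12.6% of all clusters. PDCD2, the escort of RPS2, measured 5.10 and 5.16 with ornithogalum, against 6.37 and 6.20 with vehicle, and fell 2.22-fold (difference -1.15, SE 0.12, adjusted p = 0.0058). PDCD2L, its paralog, measured 5.36 and 5.62 with ornithogalum, against 6.49 and 6.31 with vehicle, and fell 1.88-fold (adjusted p = 0.016). HEATR3, which carries RPL5 into the nucleus, measured 3.65 and 3.58 with ornithogalum, against 4.05 and 4.23 with vehicle, and fell 1.44-fold (adjusted p = 0.046). RPF2, which helps place the 5S particle, measured 7.38 and 7.44 with ornithogalum and 7.03 and 6.82 with vehicle (difference 0.49, adjusted p = 0.060). HEATR3 was lost after quantile normalization and median centring, with the replicate block (adjusted p = 0.084) and with either ornithogalum array left out (adjusted p = 0.056 in each). RPF2 passed under each of the 3 other scalings (adjusted p = 0.030 to 0.049). The counts were thus 1 rise and 2 falls after quantile normalization and after median centring, and 1 rise and 3 falls after cyclic loess. Under these settings 19.4%, 19.5% and 20.6% of all clusters passed in either direction, in that order.

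In the quality control of stalled ribosomes, 9 genes were measured, 2 rose and 1 fell, again where 6.57% of all clusters rose and 12.6% fell. LTN1, the ubiquitin ligase that marks stalled chains, measured 6.67 and 6.62 with ornithogalum, against 6.11 and 5.98 with vehicle, and rose 1.52-fold (adjusted p = 0.026). HBS1L, a GTPase that helps rescue stalled ribosomes, measured 7.84 and 7.66 with ornithogalum, against 7.18 and 7.06 with vehicle, and rose 1.55-fold (adjusted p = 0.030). TCF25, a partner of LTN1, measured 5.70 and 5.61 with ornithogalum, against 6.26 and 6.16 with vehicle, and fell 1.47-fold (adjusted p = 0.033). TCF25 was lost under each of the 3 other scalings (adjusted p = 0.067 to 0.11) and with the replicate block (adjusted p = 0.062), and LTN1 with the block (adjusted p = 0.051). With either vehicle array left out 0 genes of the escort and stalled-ribosome lists passed.

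For the series as a whole, ornithogalum arrays had interquartile ranges over named clusters of 2.44 and 2.56, against 2.72 and 2.71 for vehicle arrays, and the median SD within a group was 0.14 with ornithogalum and 0.080 with vehicle. Of 10 epithelial markers, KRT8, KRT18 and EPCAM measured at least 9.34 on every array, while TFF3 measured 4.05 to 4.23 and CDX1 5.69 to 6.00. KRT19 fell 2.63-fold with ornithogalum (difference -1.40, adjusted p = 0.0044) and CLDN7 fell 1.69-fold (-0.76, adjusted p = 0.021), GRHL2 rose 1.54-fold (0.62, adjusted p = 0.033), and the other 7 did not pass. All 6 fibroblast markers measured at or under 5.54 and all 4 endothelial and erythroid markers at or under 3.83 on every array. Of 4 leukocyte markers, LYZ, a lysozyme gene that gastric epithelium also expresses, measured 11.70 to 11.76. The others were low, PTPRC at 1.44 to 1.74, CD3E at 2.81 to 3.15 and CD14 at 3.94 to 4.27. None of the markers of these other cell types passed the test. Their part in the results was not tested. Ribosomal protein genes have many processed pseudogenes, and 23 of the 66 genes had several clusters, 4 of them with differences of both signs (RPL12, RPL34, RPL41 and RPLP1). Whether probes also match such copies was not tested.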

How the data were processed

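The deposited table gives a log2 value for each array and each of 33297 transcript clusters. Per the submitters' processing notes, the authors used RMA and Affymetrix Expression Console 1.1. RMA corrects background and summarises the probes of a cluster, here with settings that are not stated. The distributions of the 4 arrays differ. Arrays have no sequencing depth, and precision is limited by their number. Cluster names are from a 2016 platform annotation. Of 19460 clusters with 1 symbol, 19429 were matched by gene number to the RefSeq table, from which symbols were updated. The 1754 clusters with several symbols were tested but name no gene.

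Groups were compared with R 4.3.3 and limma 3.58.1 (two-sided, lmFit then eBayes with no trend), with Benjamini-Hochberg adjustment over all 21214 named clusters, a threshold of 0.05 and no filter on dim clusters. "Rose", "fell", "higher" and "lower" refer to calls. A permutation test of 2 arrays against 2 cannot go below p = 0.333. Arrays with the same replicate number did not deviate together (correlation -0.059 across clusters), so the replicate block is an alternative only. The code was tested on simulated data.

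Genes named with all their values were the called members, the 12 core genes of smallest p, the 2 brightest and 2 dimmest core genes of each subunit, the paralogs ending in L or L1, the 5S pair, the stalk genes RPLP1 and RPLP2, and up to 3 called genes of each further list. RPS27L, RPL26, RPS27, LARP1, RPF2, the cell markers and the further called list members were named after their values were seen. The members and lists were chosen with earlier results of these data known. Alternatives were the block, leaving out each array, 3 scalings, filters, intensity trends, other cluster sets, array weights, no moderation and other thresholds.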

Additional observations from a re-analysis of the deposited data

How the results depend on the processing

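The number of ribosomal protein genes that passed was 1 as reported and ran from 0 to 11 over 19 other settings. The share of all tested clusters that passed, shown in brackets, moved as well, so this range does not describe these genes alone. No share is given at the thresholds of 0.01 and 0.10 or for counting any cluster of a gene. The number was 0 with the replicate block (15.6%), without moderation (0.00471%), over all clusters of the table (7.94%) and at a threshold of 0.01. It was 2 with array weights (19.2%), 2 after cyclic loess (20.6%) and 2 when any cluster of a gene counted. It was 3 after median centring (19.5%), 3 among clusters of mean log2 value 10 or more (41.3%) and 5 at a threshold of 0.10. It was 6 among clusters at or above the median brightness (45.6%). It was 11 with an intensity trend, without a robust prior (24.4%) or with one (24.1%). Quantile normalization (19.4%) also gave 1, but it was RPL32 and not RPL26L1. With 1 array left out it ran from 0 to 6, 0 with either vehicle array left out, 3 without the first ornithogalum array and 6 without the second. RPL26L1 passed in 9 of the 19 settings, RPS24 in 8, RPL3 in 6, and RPL29, RPL32 and RPS21 in 5 each.

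Over all named clusters 4076 passed. The count was 3302 with the replicate block, 2644 over all clusters of the table, 1443 at a threshold of 0.01, 74 of 179 among clusters of mean log2 value 10 or more and 1 without moderation, and it ran from 0 to 7058 with 1 array left out. Leaving out a vehicle array leaves the spread to the ornithogalum pair, which lay farther apart. Leaving out an ornithogalum array leaves it to the vehicle pair, which lay closer together. The split was 1393 higher and 2683 lower as reported, 1817 and 2308 after quantile normalization, and 2238 and 1898 after median centring. The large-subunit median of -0.065 became 0.095 and the small-subunit median of 0.042 became 0.20 after median centring; with 1 array left out they ran from -0.081 to -0.026 and from 0.00038 to 0.095. Of 830 pairs of a named gene and a setting, 653 kept sign and call, 105 lost a call, 45 gained one and 27 changed the sign of an uncalled difference; the causes were not tested. Groups of 2 arrays limit what any of these fits can show.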

Other observations

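Clusters that carry a core ribosomal protein symbol together with others were not read as genes. There were 47 of them, with a median difference of 0.018. Of these, 1 passed, beside 19.2% of all named clusters. It was a cluster annotated to both H19 and RPS12, at 9.43 and 9.36 with ornithogalum and 10.73 and 10.78 with vehicle (difference -1.36, limma adjusted p = 0.0038). A second cluster with the RPS12 symbol, shared with a small nucleolar RNA, measured 7.41 and 7.71 with ornithogalum and 7.75 and 7.69 with vehicle (difference -0.16). Which transcript the first cluster measures cannot be told from its annotation, and it was singled out after its value was seen.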
